A study of Mus musculus with 27 samples.

Results

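The 39 genes of the mouse Hox clusters were followed through 27 bulk RNA-seq libraries of sorted cells from non-obese diabetic mice. Members were chosen by symbol alone, as every gene named Hoxa, Hoxb, Hoxc or Hoxd followed by a number, and they are 39 of the 54446 genes in the tables. Cluster A holds 11 of them on chromosome 6, cluster B 10 on chromosome 11, cluster C 9 on chromosome 15 and cluster D 9 on chromosome 2. Hox genes encode homeodomain transcription factors that give cells their place along the head-to-tail axis of the embryo. Within a cluster the genes lie in the order in which they are used along the body, with low paralogue numbers towards the head and high numbers towards the tail and the ends of the limbs. Adult fibroblasts and other mesenchymal cells keep much of this pattern, so that their Hox genes reflect the part of the body they come from. Paralogue numbers 1 to 4 are called anterior here (12 genes), 5 to 8 middle (11 genes) and 9 to 13 posterior (16 genes).

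All animals were 12 weeks old, and the strain was given as NOD/ShiLtJ for the TG- libraries and as Ins2-CCL21 NOD for the TG+ libraries. The TG- animals carry no transgene, and in the TG+ animals the insulin gene Ins2 drives the chemokine CCL21 in pancreatic beta cells. By their labels, 8 libraries were lymphocytes of islet infiltrates sorted by CD45 (4 TG- and 4 TG+), 4 were islet gp38-high cells (2 and 2), 8 were islet gp38-low cells (4 and 4) and 7 were fibroblastic reticular cells (FRCs) of skin-draining lymph nodes (4 TG- and 3 TG+). The gp38 cells are described as FRC-like cells of tertiary lymphoid organs, the lymph node-like aggregates that form in inflamed islets, and gp38 is the surface protein encoded by Pdpn. Whether the replicates of a group are different animals or pools is not stated, so every p-value is set against a spread between libraries that may be technical only.

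Marker genes went against many of these labels, so the Hox genes were described in 4 classes of libraries set by measured levels of 3 other genes. The Ptprc-high class holds 8 libraries with more than 100 CPM of Ptprc, the gene of the leukocyte antigen CD45, where CPM is the number of reads scaled to a library of 1000000 reads in genes. The Ccl21a-high class holds 7 libraries with more than 1000 CPM of Ccl21a, the lymphoid stroma chemokine. The Msln-high class holds 4 libraries with more than 100 CPM of the mesothelial gene Msln, and 8 libraries passed no threshold and are called the remaining libraries. The lowest library above and the highest below each threshold lay far apart, at 169 and 5.79 CPM for Ptprc, 2162 and 5.28 CPM for Ccl21a, and 573 and 2.52 CPM for Msln. Of the 8 libraries labelled CD45, 1 was Ptprc-high, 4 were Ccl21a-high, 1 was Msln-high and 2 were remaining. Of the 7 labelled lymph node FRC, 5 were Ptprc-high, 1 was Msln-high, 1 was remaining and 0 were Ccl21a-high. Pdpn reached at most 1.01 CPM in the Ptprc-high libraries against 51.1 to 218 CPM in the other 19, which are called stromal below. Whether libraries were exchanged between labels was not tested, so a group named by population or genotype below means the libraries that carry that label, and a difference between groups is one between labels. The classes are defined from the data and are not the study's groups. They are therefore described by their ranges, with no p-value between them. Total reads in genes ran from 8517844 to 25194443, and 3 reads, taken as the floor for calling a gene present, equal 0.119 to 0.352 CPM. Floors cover counting error only.

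The number of Hox genes at or above the floor differed between the classes. It was 25 to 28 in the Ccl21a-high libraries (median 27), 20 to 23 in the Msln-high libraries (median 20.5) and 19 to 24 in the remaining libraries (median 23). In the Ptprc-high libraries it was 2 to 8 (median 5). The summed Hox level was 214 to 310 CPM in the Ccl21a-high, 180 to 263 CPM in the Msln-high, 122 to 176 CPM in the remaining and 3.45 to 6.06 CPM in the Ptprc-high libraries. In bulk samples, fewer cells of a type and less RNA per cell cannot be told apart. The fibroblast markers, 9 genes with Col1a1 among them, summed to 13350 CPM or more in every stromal library and to 47.6 to 177 CPM in the Ptprc-high libraries, and their part in the Hox totals was not tested.

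The most posterior gene at or above the floor in every library of a class was compared between classes. By this measure the Ccl21a-high libraries reached further towards the posterior end in clusters A, C and D. In cluster B all 3 stromal classes ended at the same gene. In the Ccl21a-high libraries the most posterior gene at or above the floor in every library was Hoxa10 in cluster A, Hoxb8 in cluster B, Hoxc10 in cluster C and Hoxd9 in cluster D. In the Msln-high libraries these genes were Hoxa7, Hoxb8, Hoxc6 and Hoxd8. The remaining libraries gave the same 4 genes as the Msln-high libraries. Most remaining libraries still held genes beyond these, with Hoxa10, Hoxc10 and Hoxd9 at or above the floor in 7, 6 and 6 of 8. Hoxa11, further posterior, was so in 6 of 8 remaining and 0 of 7 Ccl21a-high libraries. Of the 16 posterior genes, 5 were at or above the floor in every Ccl21a-high library, and 0 were so in every Msln-high or every remaining library. Of the 11 middle genes, the corresponding counts were 11, 10 and 9, and of the 12 anterior genes they were 9, 8 and 8. In the Ptprc-high libraries Hoxb4 alone of the 39 was at or above the floor in all 8.

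**Figure D1:**
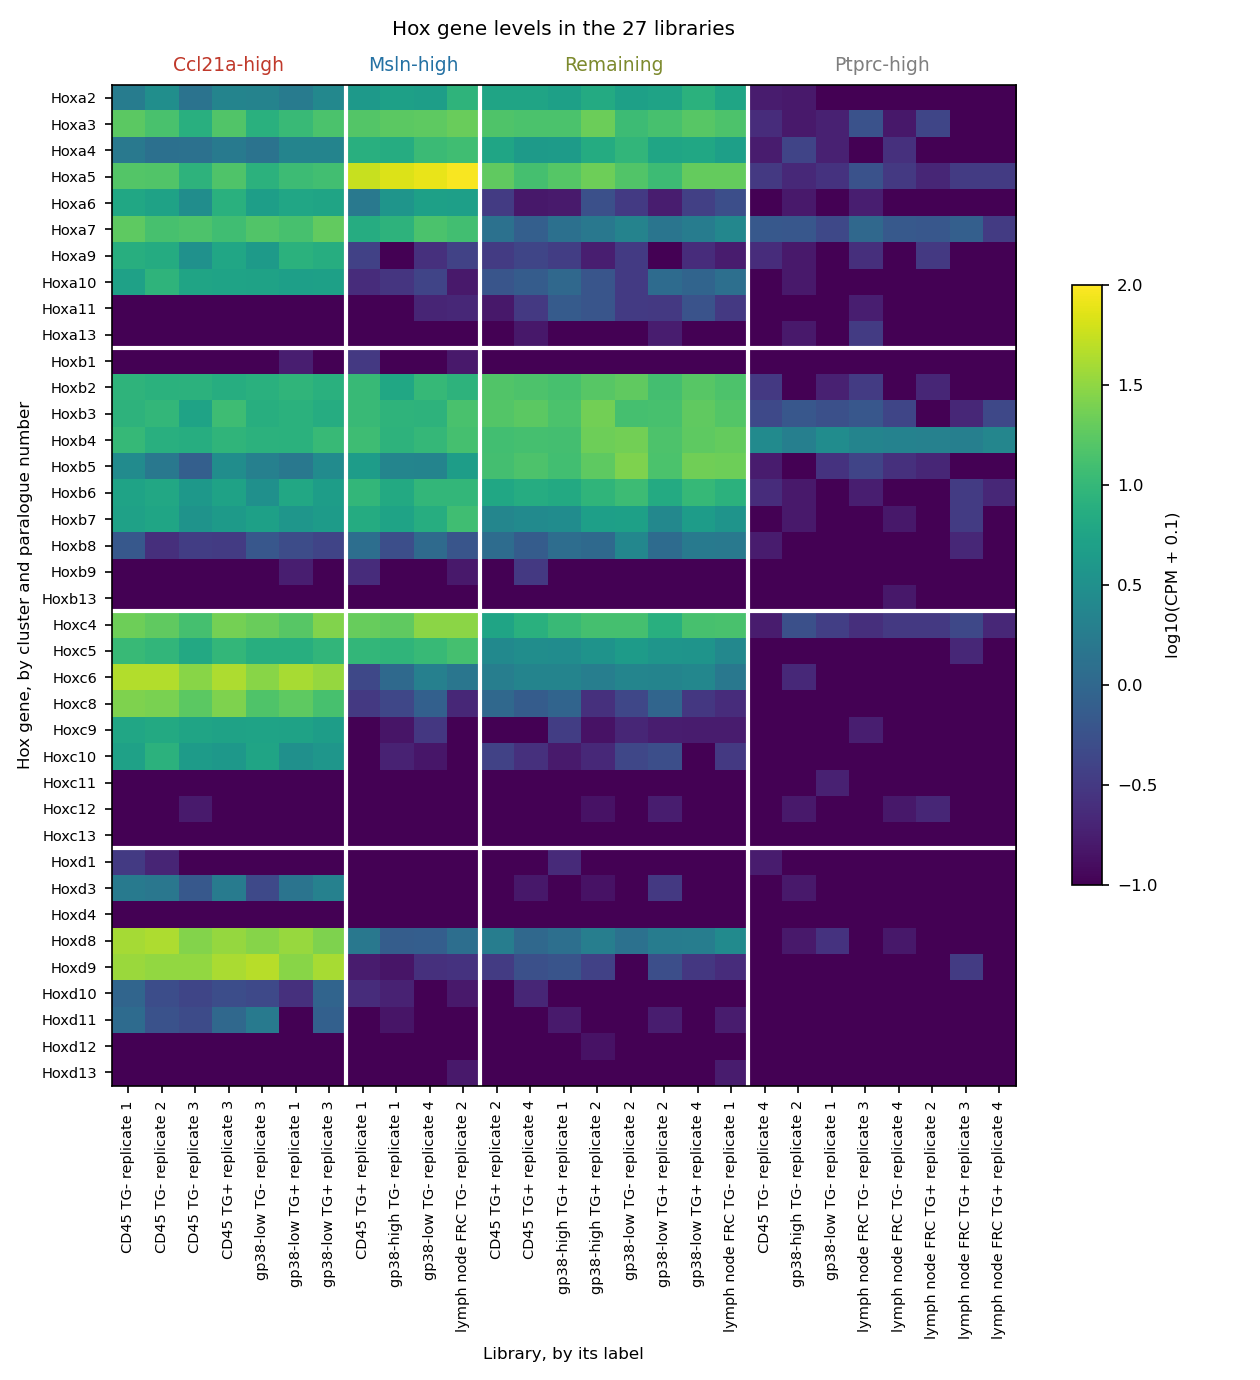
Level of the Hox genes (rows, by cluster and paralogue number, 1 gene not shown) in each of the 27 libraries (columns, named by label and ordered by class), as log10 of CPM plus 0.1. Hoxc6, Hoxc8, Hoxd8 and Hoxd9 are bright in the 7 Ccl21a-high libraries, Hoxa5 is brightest in the 4 Msln-high libraries, and in the Ptprc-high libraries the row of Hoxb4 stands out.

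Upstream sequence is shown for 4 genes, each standing for 1 of the patterns described below: Hoxd8 and Hoxa9 were high in the Ccl21a-high libraries, Hoxa5 in the Msln-high libraries, and Hoxb4 was present in every class. RefSeq promoter entries (GRCm38.p6) were matched by symbol for 22 of the 39 genes, giving 24 promoters, and the 250 bases before an annotated start are printed 5′ to 3′ on the gene's strand. Hoxd8 is at chr2:74704365-74704614 on the plus strand, Hoxa9 at chr6:52227371-52227620 on the minus strand, Hoxa5 at chr6:52204588-52204837 on the minus strand and Hoxb4 at chr11:96318017-96318266 on the plus strand. Capitals mark a match to CCAAT on either strand.
Hoxd8: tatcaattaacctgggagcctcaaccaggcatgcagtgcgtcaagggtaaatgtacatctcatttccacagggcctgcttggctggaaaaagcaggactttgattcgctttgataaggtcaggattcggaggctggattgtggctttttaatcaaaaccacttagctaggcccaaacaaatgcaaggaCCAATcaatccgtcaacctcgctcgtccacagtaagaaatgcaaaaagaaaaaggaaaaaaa
Hoxa9: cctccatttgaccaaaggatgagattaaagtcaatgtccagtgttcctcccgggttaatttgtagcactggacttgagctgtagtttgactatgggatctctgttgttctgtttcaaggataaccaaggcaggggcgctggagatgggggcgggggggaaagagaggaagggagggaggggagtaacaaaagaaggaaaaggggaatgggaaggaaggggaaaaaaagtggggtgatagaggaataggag
Hoxa5: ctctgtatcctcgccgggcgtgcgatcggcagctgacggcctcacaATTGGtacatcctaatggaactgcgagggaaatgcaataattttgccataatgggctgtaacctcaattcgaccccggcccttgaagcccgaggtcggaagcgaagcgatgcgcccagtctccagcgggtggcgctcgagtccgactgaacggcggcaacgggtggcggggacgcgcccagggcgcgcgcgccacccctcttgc
Hoxb4: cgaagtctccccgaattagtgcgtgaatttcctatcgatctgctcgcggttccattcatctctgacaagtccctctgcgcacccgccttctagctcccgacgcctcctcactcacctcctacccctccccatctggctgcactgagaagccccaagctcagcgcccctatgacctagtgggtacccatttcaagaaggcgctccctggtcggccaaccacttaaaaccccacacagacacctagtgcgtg
Searched on both strands were TGATNNAT, the joint HOX-PBX site, TTTATG, the core bound by posterior HOX and CDX proteins, TATAAA, the TATA box, and CCAAT. Matches stood in 4, 5, 4 and 14 of the 24 Hox promoters, and in 7.68%, 10.8%, 12.4% and 33.8% of all 32851 promoters of this length. Hoxd8 and Hoxa5 held 1 CCAAT match each, and the windows of Hoxa9 and Hoxb4 held 0 matches to these letters. A match is a description of the letters and does not show that a factor binds there.

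Posterior genes of clusters A, C and D were high in the Ccl21a-high libraries and near the floor elsewhere. Hoxd9, which patterns the trunk and proximal limb, was at 29.0 to 47.1 CPM in the 7 Ccl21a-high libraries (median 35.2). It stood at 0.0703, 0.0478, 0.158 and 0.175 CPM in the 4 Msln-high libraries and at 0 to 0.504 CPM in the remaining libraries (median 0.254). Its Ccl21a-high median was 138-fold that of the remaining libraries, of which 6 of 8 held it at or above the floor. Hoxd9 lies at chr2:74697727-74700208 on the plus strand (GRCm38, GENCODE M21, as for the other gene positions). Hoxa9 ran from 3.19 to 8.04 CPM in the Ccl21a-high libraries (median 6.92) and reached at most 0.292 CPM in the Msln-high and 0.326 CPM in the remaining libraries. Hoxa10, a regulator of the lumbar region and the reproductive tract, ran from 4.89 to 8.83 CPM, against at most 0.316 CPM in the Msln-high libraries. In the remaining libraries Hoxa10 ran from 0.223 to 1.13 CPM, and 7 of those 8 were at or above the floor. Hoxc9 ran from 4.58 to 6.50 CPM in the Ccl21a-high libraries and reached at most 0.252 CPM in any other library. Hoxc10, used in hindlimb and lumbar patterning, ran from 3.07 to 8.41 CPM and reached at most 0.432 CPM elsewhere, although 6 of the 8 remaining libraries held it at or above the floor. None of these 5 genes overlapped between the Ccl21a-high libraries and any other class.

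The middle genes next to them in clusters C and D followed the same order of classes. Hoxc6, a gene of the thoracic region, was at 29.5 to 45.0 CPM in the Ccl21a-high libraries (median 40.9). It lies at chr15:102998257-103011881 on the plus strand. Its 4 Msln-high values were 0.352, 0.957, 1.95 and 1.40 CPM, and its remaining values ran from 1.48 to 2.33 CPM (median 2.15). The Ccl21a-high median of Hoxc6 was 19.03-fold that of the remaining and 34.7-fold that of the Msln-high libraries. Hoxc8, also of the thoracic region, ran from 13.3 to 26.5 CPM in the Ccl21a-high libraries (median 17.7), and from 0.141 to 0.923 CPM in the remaining libraries. Hoxd8 ran from 26.1 to 43.0 CPM in the Ccl21a-high libraries (median 33.3), from 0.670 to 1.48 CPM in the Msln-high libraries and from 0.924 to 2.61 CPM in the remaining libraries. Measured per kilobase of exon, Hoxc6, Hoxd9 and Hoxd8 had the highest Ccl21a-high medians of all Hox genes, at 17.0, 16.5 and 12.1 CPM per kilobase.

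Not every posterior gene was present in these libraries. Hoxd10 was at 0.158 to 0.843 CPM and Hoxd11 at 0 to 1.64 CPM in the Ccl21a-high libraries, each at or above the floor in 6 of 7. Hoxa11, a gene of the forearm and lower leg, had 0 reads in all 7, whereas 6 of the 8 remaining libraries held it at or above the floor, at up to 0.630 CPM. Across all 27 libraries the posterior genes Hoxb13, Hoxc11, Hoxc12, Hoxc13, Hoxd12 and Hoxd13, which pattern the tail and the ends of the limbs, never reached the floor. Hoxa13, Hoxb9, Hoxb1 and Hoxd1 reached it in 1 library each, with 3, 4, 3 and 4 reads. Hoxd4 had 0 reads in every library. Hoxd3 and Hoxd4 share 62.3% and 52.3% of their exon bases with another gene on the same strand, each other included, and STAR's gene counter drops reads that fall on shared bases. Both values are therefore uncertain. With that limit, Hoxd3 was at 0.366 to 1.98 CPM in the Ccl21a-high libraries and had 0 reads in all 4 Msln-high libraries, so its Ccl21a-high median was at least 8.68-fold higher, taking the Msln-high median of the floor of 3 counts per library.

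Of the 39 genes, 30 reached the floor in a Ccl21a-high or a remaining library, 12 were higher in every Ccl21a-high than in every remaining library and 7 were lower. Among all 24234 genes present in these libraries, 7.07% were higher in that sense and 10.5% lower. Of the 12 higher genes, 5 were posterior, 6 middle and 1 anterior, and 4 belonged to cluster A, 5 to C, 3 to D and 0 to B. All 7 lower genes lay at position 8 or further forward, 5 of them anterior, and 5 of the 7 belonged to cluster B. Against the Msln-high libraries, 9 Hox genes were higher in the Ccl21a-high libraries, 5 of them posterior, and 4 were lower (background 7.18% and 22.8% of 24467 genes). On the CPM scale all genes together had a median log2 difference of -0.15 between the Ccl21a-high and the remaining libraries, 0.12 between the Msln-high and the remaining libraries, and -0.25 between the Ccl21a-high and the Msln-high libraries, and differences near that size are not read here. The Ccl21a-high libraries also held the pericyte and smooth muscle markers, 6 genes with Acta2 among them, at a sum of 2301 to 3874 CPM against 142 to 337 CPM in the other stromal libraries. Their lymphoid stroma markers summed to 3546 to 7778 CPM against 74.2 to 310 CPM, where Ccl21a itself set the class. Keratinocyte markers (Krt5 and Krt14) summed to 0.827 to 41.8 CPM there, 12.2 to 30.8 CPM in the Msln-high libraries and at most 0.144 CPM in the remaining libraries, where Krt5 had 0 reads. Leukocyte markers summed to at most 23.4 CPM in any stromal library. Their part in the Hox levels was not tested.

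**Figure D2:**
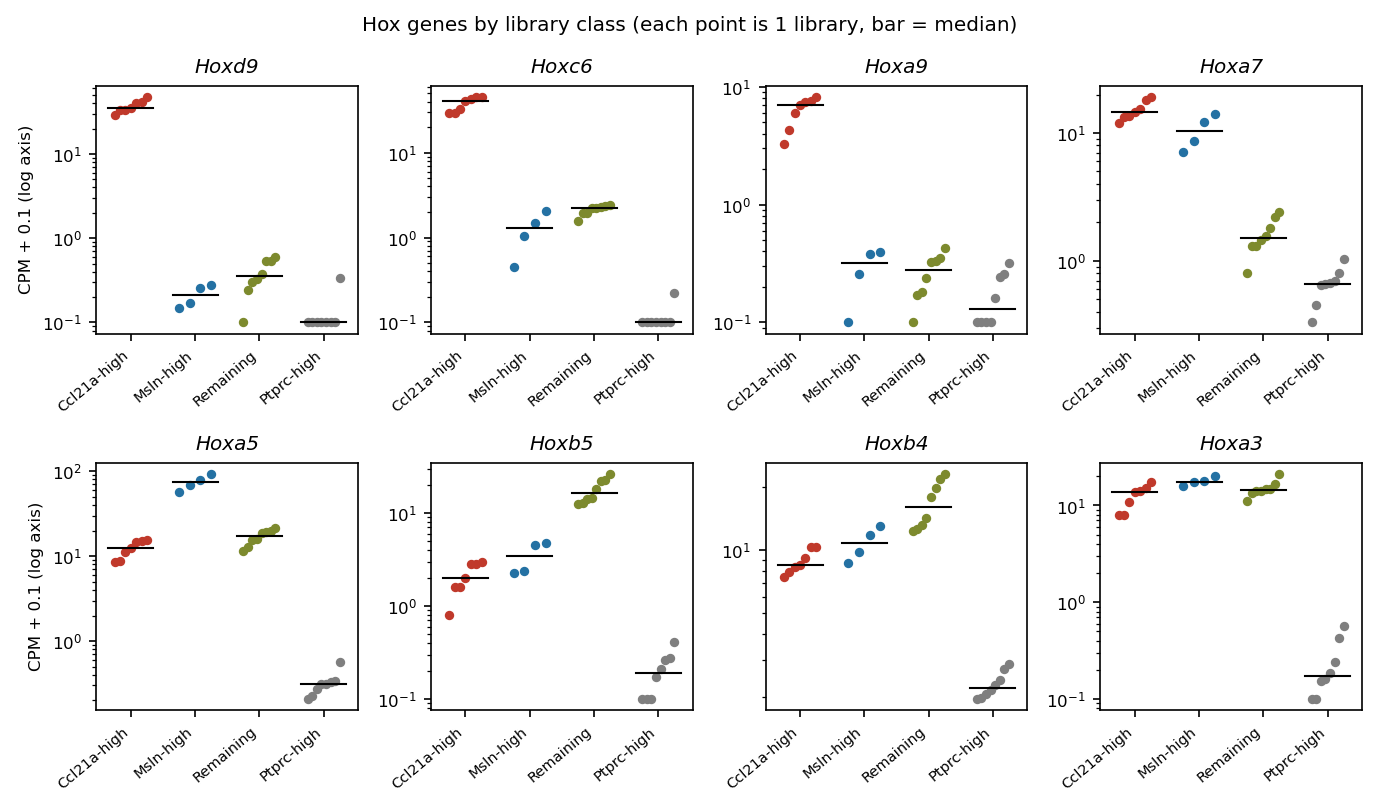
Levels of 8 Hox genes by library class, each point 1 library, sorted within its class, with the median as a bar (CPM plus 0.1 on a log axis, drawn to a different range in each panel). Hoxd9, Hoxc6 and Hoxa9 separate the 7 Ccl21a-high libraries from all others, Hoxa5 is highest in the Msln-high and Hoxb5 in the remaining libraries, and Hoxa3 overlaps between the 3 stromal classes.

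Hoxa5, which is known for its part in lung, gut and cervical patterning, was highest in the Msln-high libraries. It lies at chr6:52201754-52204587 on the minus strand. Its 4 values there were 56.3, 68.7, 79.1 and 93.3 CPM. It ran from 8.41 to 15.5 CPM in the Ccl21a-high libraries (median 12.3), from 11.4 to 21.5 CPM in the remaining libraries (median 17.2) and from 0.109 to 0.466 CPM in the Ptprc-high libraries. The Msln-high median was 4.29-fold that of the remaining and 6.02-fold that of the Ccl21a-high libraries. At 39.4 CPM per kilobase of exon, Hoxa5 had the highest median of any Hox gene in any class. Its neighbour Hoxa4 was at 7.03 to 11.9 CPM in the Msln-high and 4.19 to 9.38 CPM in the remaining libraries, and at 1.19 to 2.19 CPM in the Ccl21a-high libraries, below both.

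Hoxa6 and Hoxa7 were shared by the Msln-high and the Ccl21a-high libraries. Hoxa7 was at 7.03, 8.52, 13.9 and 12.1 CPM in the Msln-high and at 11.8 to 18.9 CPM in the Ccl21a-high libraries, against 0.707 to 2.33 CPM in the remaining libraries. Hoxa6 was at 1.55 to 5.0 CPM in the Msln-high and 2.87 to 7.98 CPM in the Ccl21a-high libraries, and at or above the floor in 4 of the 8 remaining libraries, with a maximum of 0.437 CPM. Hoxc4 and Hoxc5, which are used in the neck and upper trunk, were present in all stromal libraries and had their lowest stromal medians in the remaining libraries. Hoxc4 was at 18.3 to 30.4 CPM in the Msln-high, 13.1 to 26.6 CPM in the Ccl21a-high and 5.59 to 13.5 CPM in the remaining libraries, of which the last 2 overlapped. Hoxc5 was at 8.99 to 12.96, 6.32 to 10.5 and 2.40 to 4.35 CPM in the same order, with the remaining libraries below both other classes.

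Between the Msln-high and the remaining libraries, 7 Hox genes were higher without overlap, Hoxa5, Hoxa6, Hoxa7, Hoxb7, Hoxc4 and Hoxc5 among them, and 2 were lower (Hoxb2 and Hoxb5). The background was 15.7% and 5.53% of 24235 genes. With TMM scaling, under which the median log2 difference of all genes was -0.07 in place of 0.12, the split was 4 higher and 5 lower. For Hoxb7 the gap was small, at 5.41 to 11.9 against 2.31 to 5.02 CPM. Posterior genes contributed 0 of these 9. Mesothelial markers, 7 genes with Msln among them, summed to 4232 to 6156 CPM in the Msln-high libraries and to 99.8 to 194 CPM in the remaining ones, where Msln itself set the class. Endothelial markers summed to 222 to 426 CPM in the Msln-high, 14.8 to 225 CPM in the remaining and 16.5 to 43.1 CPM in the Ccl21a-high libraries, and ductal markers to 362 to 2242 CPM in the Msln-high libraries. The part of these markers in the Hox levels was not tested.

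Cluster B gave most Hox reads in the remaining libraries. Hoxb5, at chr11:96303336-96306121 on the plus strand and used in the neck and upper trunk, was at 12.4 to 26.3 CPM there (median 16.2), at 4.43, 2.25, 2.16 and 4.61 CPM in the 4 Msln-high libraries and at 0.702 to 2.90 CPM in the Ccl21a-high libraries (median 1.92). The remaining median was 8.46-fold the Ccl21a-high and 4.86-fold the Msln-high median, and no library of either class reached the lowest remaining library. Hoxb2, Hoxb3 and Hoxb4, genes of the hindbrain and neck, were present in all 19 stromal libraries with smaller differences. Hoxb4 was at 12.3 to 23.1 CPM in the remaining (median 16.0), 8.56 to 12.9 CPM in the Msln-high and 7.34 to 10.3 CPM in the Ccl21a-high libraries (median 8.41). Hoxb3 was at 12.9 to 23.2 CPM in the remaining and 5.42 to 11.5 CPM in the Ccl21a-high libraries. Hoxb2 was at 12.6 to 18.3 CPM in the remaining libraries, above the 7.27 to 8.99 CPM of the Ccl21a-high libraries, but with reads of both strands counted its log2 ratio of medians was 0.26, in the opposite direction. Hoxb8, a thoracic gene, was low throughout, at 0.652 to 2.34 CPM in the remaining and 0.155 to 0.562 CPM in the Ccl21a-high libraries. Hoxb6 was at 6.05 to 11.2 CPM in the remaining, 6.51 to 9.69 CPM in the Msln-high and 3.11 to 6.19 CPM in the Ccl21a-high libraries, so that only the last 2 ranges did not overlap. Hoxa2 was also higher in the remaining libraries, at 4.98 to 8.09 CPM, than in the Ccl21a-high libraries, at 1.28 to 2.94 CPM. Unlike Hoxb5, it overlapped between the remaining and the Msln-high libraries, which were at 3.94 to 8.94 CPM. Acinar markers such as Cpa1 summed to 73.2 to 8268 CPM and ductal markers to 168 to 2401 CPM in the remaining libraries, against at most 0.886 and 39.1 CPM in the Ccl21a-high libraries, and their part in the Hox levels was not tested.

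Hoxa3, which is needed for the thymus and parathyroid, was at much the same level in all stromal classes. It was at 7.79 to 17.5 CPM in the Ccl21a-high (median 13.7), 15.7 to 20.3 CPM in the Msln-high and 11.2 to 21.2 CPM in the remaining libraries (median 14.3), and these ranges overlapped.

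Few Hox reads were found in the Ptprc-high libraries, 30 to 78 in each. Hoxb4, which is known for its use in blood stem cells, was at 1.86 to 2.78 CPM in the 8 libraries (median 2.11) and at 0.824 CPM per kilobase ranked first there. Its lowest stromal value was 7.34 CPM. Hoxa7 was at 0.230 to 0.932 CPM and at or above the floor in 7 of 8, Hoxb3 in 6 of 8 at up to 0.557 CPM, and Hoxc4 in 4 of 8 at up to 0.433 CPM. Of the 39 Hox genes, 32 reached the floor in at least 1 library. None was higher in every Ptprc-high than in every stromal library, and 16 of the 32 were lower. Among all 26784 genes that reached the floor, 8.11% were higher in that sense and 11.5% lower. Of the 39, 28 were below the floor in all 8 Ptprc-high libraries, including all 9 genes of cluster D.

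Shares of Hox reads gave each stromal class its own profile. Cluster D took 25.4% to 31.5% of Hox reads in the Ccl21a-high libraries, 0.369% to 0.928% in the Msln-high libraries and 0.740% to 2.01% in the remaining libraries. Cluster A took 52.0% to 62.4% in the Msln-high libraries, 27.2% to 38.0% in the remaining and 20.6% to 26.0% in the Ccl21a-high libraries. Cluster B took 50.3% to 59.8% in the remaining, 21.2% to 30.4% in the Msln-high and 13.1% to 14.7% in the Ccl21a-high libraries. Cluster C took 33.9% to 37.6% in the Ccl21a-high, 15.9% to 19.1% in the Msln-high and 8.85% to 13.4% in the remaining libraries. By position, anterior genes took 21.7% to 27.9%, 40.8% to 45.4% and 56.7% to 63.0% in the same order. Posterior genes took 19.6% to 28.3% of Hox reads in the Ccl21a-high libraries, 0.292% to 0.438% in the Msln-high and 0.673% to 2.167% in the remaining libraries. None of these ranges overlapped between the 3 stromal classes, except that cluster D shares in the Msln-high and the remaining libraries did. These shares do not depend on the total of other genes. They did not follow the labels: the posterior share was 19.6% to 24.4% in the TG- CD45 libraries 1, 2 and 3 and 21.4% in TG+ CD45 library 3, but 0.425%, 1.05% and 1.74% in TG+ CD45 libraries 1, 2 and 4. Among the gp38-low libraries, TG- library 3 had 28.3% and TG+ libraries 1 and 3 had 19.99% and 23.3%, and the highest of the other 5 had 1.95%.

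**Figure D3:**
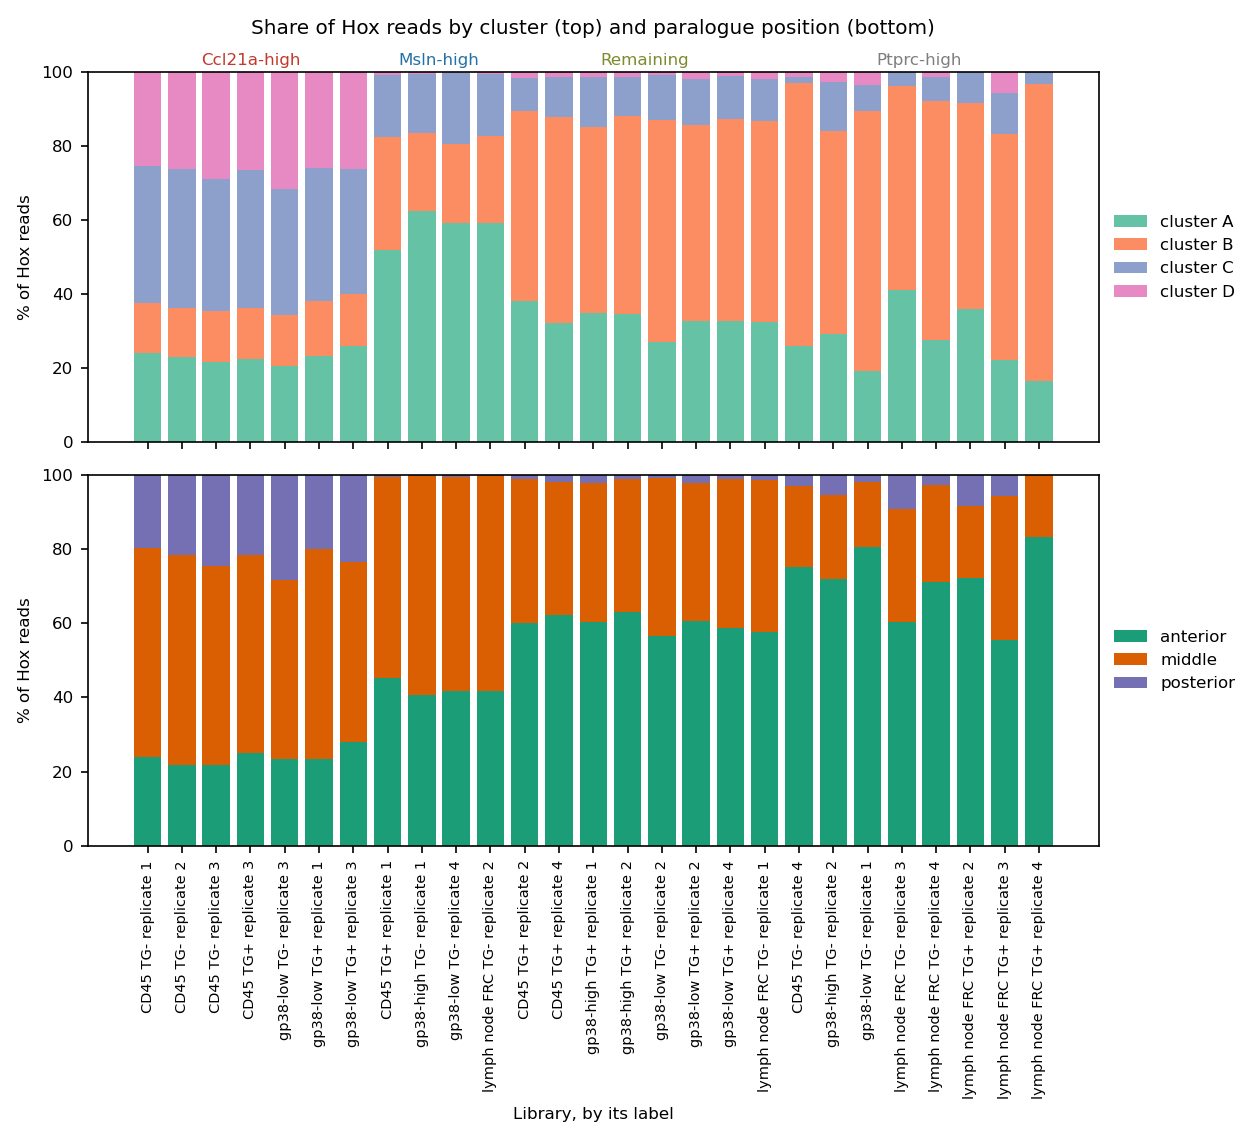
Percent of each library's Hox reads that fell in clusters A to D (top) and in anterior, middle and posterior genes (bottom), with libraries named by label and ordered by class. Cluster D and posterior genes take a visible share in the 7 Ccl21a-high libraries, cluster A the largest share in the 4 Msln-high and cluster B in the 8 remaining libraries; the Ptprc-high bars rest on 30 to 78 Hox reads each.

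Other regulators of body position were read from lists of limb and trunk factors (11 genes), pancreatic and splenic mesenchyme factors (10), Hox cofactors (9), upstream activators (9), ParaHox genes (6), Polycomb (10) and Trithorax genes (4), and Hox cluster non-coding RNAs (12, of which 10 were matched). Between the Ccl21a-high and the remaining libraries, 6 of 11 limb and trunk factors were higher without overlap (Tbx5, Tbx15, Tbx18, Shox2, En1 and Emx2) and 1 was lower (Prrx2), against 7.07% and 10.5% of all genes present in these libraries. Tbx15, a factor of limb and trunk mesenchyme, was at 39.8 to 76.0 CPM in the Ccl21a-high libraries (median 70.2), at 0.0957 to 0.774 CPM in the Msln-high and 0.173 to 0.693 CPM in the remaining libraries. En1, which marks part of the dermal fibroblast lineage, was at 9.87 to 14.6 CPM in the Ccl21a-high and at most 0.781 CPM in the remaining libraries. Shox2, a limb skeletal factor, was at 8.13 to 19.2 CPM against at most 1.15 CPM, and Emx2 at 9.78 to 14.2 CPM against at most 2.26 CPM. Prrx1, the most abundant factor on this list, was at 156 to 333 CPM in the Ccl21a-high and 131 to 295 CPM in the remaining libraries, which overlapped, and at 41.7 to 88.6 CPM in the Msln-high libraries. Tbx4 was at 5.79 to 12.8 CPM in the Msln-high libraries and at most 1.13 CPM in any other class, and Tbx18 at 18.6 to 34.0 CPM in the Ccl21a-high and 23.6 to 44.5 CPM in the Msln-high libraries against 1.64 to 3.02 CPM in the remaining ones.

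Of the 10 factors of visceral mesenchyme, 6 were lower without overlap in the Ccl21a-high than in the remaining libraries (Barx1, Nkx2-3, Nkx3-2, Tlx1, Isl1 and Tcf21; 10.5% of all genes were) and 3 were higher (Foxf1, Nr2f1 and Nr2f2; 7.07% of all genes were). Tcf21, a factor of visceral organ mesenchyme, was at 61.6 to 120 CPM in the remaining libraries (median 87.6), 5.55 to 15.3 CPM in the Msln-high and 0.177 to 0.830 CPM in the Ccl21a-high libraries. Nkx2-3, needed for spleen and gut mesenchyme, was at 32.5 to 62.8 CPM in the remaining and 12.5 to 16.3 CPM in the Msln-high libraries, and at most 0.0788 CPM, or 1 read, in the Ccl21a-high libraries. Barx1, known from stomach and spleen mesenchyme, was at 64.3 to 107 CPM in the Msln-high and 15.8 to 44.4 CPM in the remaining libraries, and at most 0.183 CPM in the Ccl21a-high libraries. Nkx3-2 was at 7.61 to 18.7 CPM in the remaining libraries and at most 1.99 CPM in the other stromal classes. Isl1, a factor of both pancreatic mesenchyme and endocrine cells, was at 31.6 to 62.3 CPM in the Msln-high, 5.58 to 11.1 CPM in the remaining and at most 0.0788 CPM in the Ccl21a-high libraries. Beta cell markers summed to at most 1.10 CPM in the Msln-high and 33.2 CPM in the remaining libraries. Foxf1, a forkhead factor of visceral mesenchyme, ran the other way at 52.2 to 80.1 CPM in the Ccl21a-high, 11.2 to 16.9 CPM in the Msln-high and 8.36 to 12.2 CPM in the remaining libraries. Nr2f2 was at 106 to 197 CPM in the Ccl21a-high and 26.1 to 74.3 CPM in the remaining libraries.

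**Figure D4:**
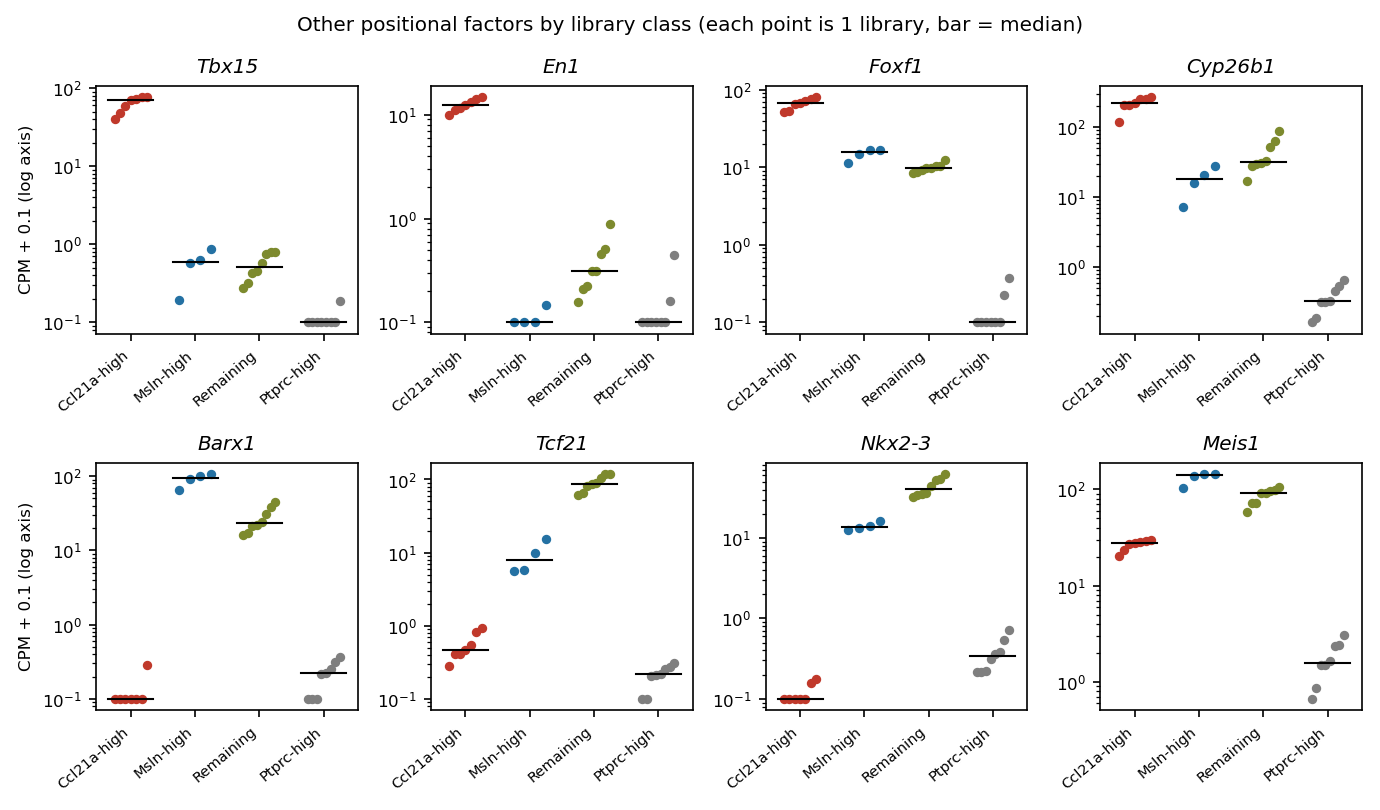
Levels of 8 other regulators of body position by library class, each point 1 library, sorted within its class, with the median as a bar (CPM plus 0.1 on a log axis, drawn to a different range in each panel). Tbx15, En1, Foxf1 and Cyp26b1 are highest in the 7 Ccl21a-high libraries, and Barx1, Tcf21, Nkx2-3 and Meis1 are lower there than in the Msln-high and the remaining libraries.

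Retinoic acid switches on anterior Hox genes in the embryo, and CYP26 enzymes break it down. Of the 9 upstream activators, 6 reached the floor in a Ccl21a-high or a remaining library. Without overlap, 1 was higher in the Ccl21a-high libraries (Cyp26b1) and 2 lower (Rarb and Cyp26a1), against 7.07% and 10.5% of all genes. Cyp26b1 was at 116 to 266 CPM in the Ccl21a-high libraries (median 222), 7.18 to 27.2 CPM in the Msln-high and 16.8 to 88.5 CPM in the remaining libraries. Cyp26a1 went the other way at levels near the floor. It was at most 0.236 CPM in the Ccl21a-high, 0.263 to 0.633 CPM in the Msln-high and 0.272 to 1.29 CPM in the remaining libraries. Rarb, a retinoic acid receptor whose own gene responds to the ligand, was at 0.206 to 1.60 CPM in the Ccl21a-high, 9.29 to 20.5 CPM in the Msln-high and 11.4 to 18.6 CPM in the remaining libraries. Rara, another receptor of the family, had medians of 52.8, 46.1 and 54.4 CPM in these classes. The caudal genes Cdx1, Cdx2 and Cdx4, which activate posterior Hox genes in the embryo, were at most 0.223 CPM in any library. Pdx1 was the ParaHox gene at or above the floor in a stromal library. It was at 0.818 to 10.8 CPM in the Msln-high and 0.670 to 9.78 CPM in the remaining libraries, which overlapped, and 0 in all Ccl21a-high libraries.

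Hox proteins bind DNA with PBX and MEIS partners. Meis1 was at 20.1 to 29.8 CPM in the Ccl21a-high, 103 to 145 CPM in the Msln-high and 58.5 to 105 CPM in the remaining libraries, with no overlap between the Ccl21a-high and either other class. Pknox2 ran the other way, at 77.0 to 107 CPM in the Ccl21a-high and 18.96 to 29.1 CPM in the remaining libraries. Among chromatin regulators that keep Hox genes silent or active, 0 of 10 Polycomb and 0 of 4 Trithorax genes were without overlap between the Ccl21a-high and the remaining libraries in either direction. With 7.07% and 10.5% of all genes higher and lower, so few genes say little either way. Between the Msln-high and the remaining libraries, Kmt2a of the Trithorax list was higher without overlap, with medians of 262 against 171 CPM.

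Non-coding RNAs of the clusters lay at low levels beside their neighbours. Hoxd3os1 was at 1.28 to 2.83 CPM in the Ccl21a-high libraries, had 0 reads in all Msln-high libraries and reached at most 0.223 CPM in the remaining ones. Hoxb5os, from the Hoxb5 region, was at 0.882 to 2.68 CPM in the remaining libraries and at most 0.112 CPM in the Ccl21a-high libraries, the same order as Hoxb5. Hoxb3os was at 2.87 to 6.32 CPM in the Ccl21a-high and 1.07 to 2.25 CPM in the remaining libraries, which was the reverse of the order of Hoxb3. Hotairm1, from the anterior end of cluster A, was at 3.01 to 4.99 CPM in the Msln-high libraries and 0.519 to 1.98 CPM in the remaining ones. The Ccl21a-high libraries, at 1.58 to 3.75 CPM, overlapped both. Hotair had at most 0.0562 CPM and Hottip had 0 reads in every library.

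The study's design implies comparisons of TG+ with TG- within each labelled population and of the islet stromal populations with lymph node FRCs, which were tested with edgeR's quasi-likelihood test (TMM scaling, Benjamini-Hochberg adjustment at 0.05). No Hox gene was called in any of the 7 comparisons, and neither was any other gene, so 0% was called of 13819 to 18396 genes tested. The number of Hox genes tested was 23 in CD45, 20 in gp38-low, 26 in gp38-high and 2 in lymph node FRC for the transgene, and 26 in each comparison of populations. At an unadjusted p under 0.05 there were 2, 0, 0 and 1 Hox genes for the transgene, against 9.43%, 1.94%, 5.13% and 7.1% of all tested genes. For gp38-low against FRC, gp38-high against FRC and gp38-high against gp38-low there were 24, 6 and 7, against 36.1%, 16.4% and 2.77% of all tested genes. Limma-voom with quality weights called 18 Hox genes in the CD45 comparison, 5 higher and 13 lower in TG+, where it called 41.4% of all genes. It called 22 in gp38-low against FRC (46.9% of all genes) and 0 Hox genes and 0% of all genes in the other 5. DESeq2 called 21 in gp38-low against FRC (25.8% of all genes) and 1, Hoxd9, in gp38-high against gp38-low (0.756%). It called 0 Hox genes for the transgene in CD45, gp38-low, gp38-high and FRC libraries, where it called 2.86%, 0.00709%, 0.223% and 3.92% of all genes, and 0 in gp38-high against FRC (3.92%).

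For the transgene, the Hox genes with the smallest p were Hoxb5 and Hoxa4 in CD45, with log2 differences of 2.63 ± 0.90 (SE, edgeR adjusted p = 0.506) and 2.07 ± 0.76 (edgeR adjusted p = 0.506). Hoxb5 was at 2.70, 1.497, 0.702 and 0.0708 CPM in the 4 TG- and at 4.43, 12.6, 2.90 and 14.4 CPM in the 4 TG+ libraries. The groups did not overlap, but only by 2.70 against 2.90 CPM. The share of all genes without overlap in this comparison was not counted. Of the CD45 libraries, 3 TG- and 1 TG+ were Ccl21a-high, 1 TG- was Ptprc-high, and the other 3 TG+ were Msln-high or remaining. The classes are thus unevenly spread over the genotypes. Within the Ccl21a-high class, the TG+ library had 2.90 CPM of Hoxb5 and the 3 TG- libraries 0.702 to 2.70 CPM. In the gp38-low libraries, Hoxa5 differed by -0.80 ± 1.14 and Hoxb3 by 0.57 ± 0.81 (edgeR adjusted p = 0.999 for both). There 16 of 20 tested Hox genes had a positive difference with all libraries, and 9 of 24 without the 1 Ptprc-high library. Over all tested genes 49.4% and 50.2% were positive, in the same order. In the gp38-high libraries, with 2 libraries a group, Hoxb4 differed by 1.88 ± 0.91 and Hoxb5 by 4.0 ± 2.34 (edgeR adjusted p = 0.663 for both), where 1 TG- library was Msln-high, the other Ptprc-high, and both TG+ libraries were remaining. With 1 library left out the difference of Hoxb5 there ranged from 3.05, without the Ptprc-high TG- library 2, to 10.69, without the Msln-high TG- library 1, and that of Hoxb4 from 1.30 to 3.01 for the same libraries (edgeR adjusted p of 0.213 or more). In the lymph node FRC libraries, Hoxa7 differed by -2.67 ± 1.13 (edgeR adjusted p = 0.696) and Hoxb4 by -1.95 ± 0.92 (edgeR adjusted p = 0.705), where all 3 TG+ libraries were Ptprc-high and 2 of the 4 TG- libraries were not. Without TG- library 1, a remaining library, the difference of Hoxb4 was -1.13.

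Between the populations, 26 of 26 tested Hox genes had a positive log2 difference in gp38-low against FRC libraries, with a median of 4.31. Over all tested genes 56.1% were positive, with a median of 0.15. Hoxc8 at 7.94 ± 1.97 and Hoxc6 at 7.49 ± 1.93 had the smallest p (edgeR adjusted p = 0.0943 for both). Of the 7 FRC libraries 5 were Ptprc-high, as was 1 of the 8 gp38-low libraries. With the Ptprc-high libraries left out, an alternative chosen after seeing the data, the FRC group held 1 Msln-high and 1 remaining library, both TG-. The gp38-low group still held both genotypes. In that fit 16 of 27 Hox genes had a positive difference (50.7% of all tested genes) and the median was 0.12. Hoxd9, at 7.47 ± 2.02 with all libraries, then stood at 6.87, while Hoxb5 went from 3.95 to -0.34 and Hoxa5 from 2.90 to -1.26. In gp38-high against FRC libraries, 25 of 26 Hox genes were positive (53.8% of all tested genes), with a median of 2.39. They were led by Hoxb3 at 2.70 ± 1.05 and Hoxa4 at 4.34 ± 1.69 (edgeR adjusted p = 0.290 for both). Without the Ptprc-high libraries, which left 1 TG- gp38-high library, 3 of 27 Hox genes were positive (44.7% of all tested genes). Their median was then -0.62. Without TG- gp38-high library 1, Hoxb3 stood at 1.42 and Hoxa4 at 2.78. Both comparisons share the same FRC libraries. In gp38-high against gp38-low libraries, 25 of 26 Hox genes were negative with a median of -1.36, while 47.3% of all tested genes were positive. They were led by Hoxd9 at -7.28 ± 2.46 and Hoxc9 at -5.04 ± 1.88 (edgeR adjusted p = 0.9999 for both). Without the Ptprc-high libraries Hoxd9 stood at -7.21, and without TG- gp38-low library 3 Hoxd9 stood at -3.42 and Hoxc9 at -3.11. Of the gp38-low libraries 3 of 8 were Ccl21a-high, with 29.0 to 47.1 CPM of Hoxd9, and 0 of 4 gp38-high libraries were. Among remaining libraries Hoxd9 was at 0, 0.432 and 0.206 CPM in the 3 labelled gp38-low. It was at 0.504 and 0.278 CPM in the 2 labelled gp38-high. The part of the Ccl21a-high libraries in the difference was not tested.

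**Figure D5:**
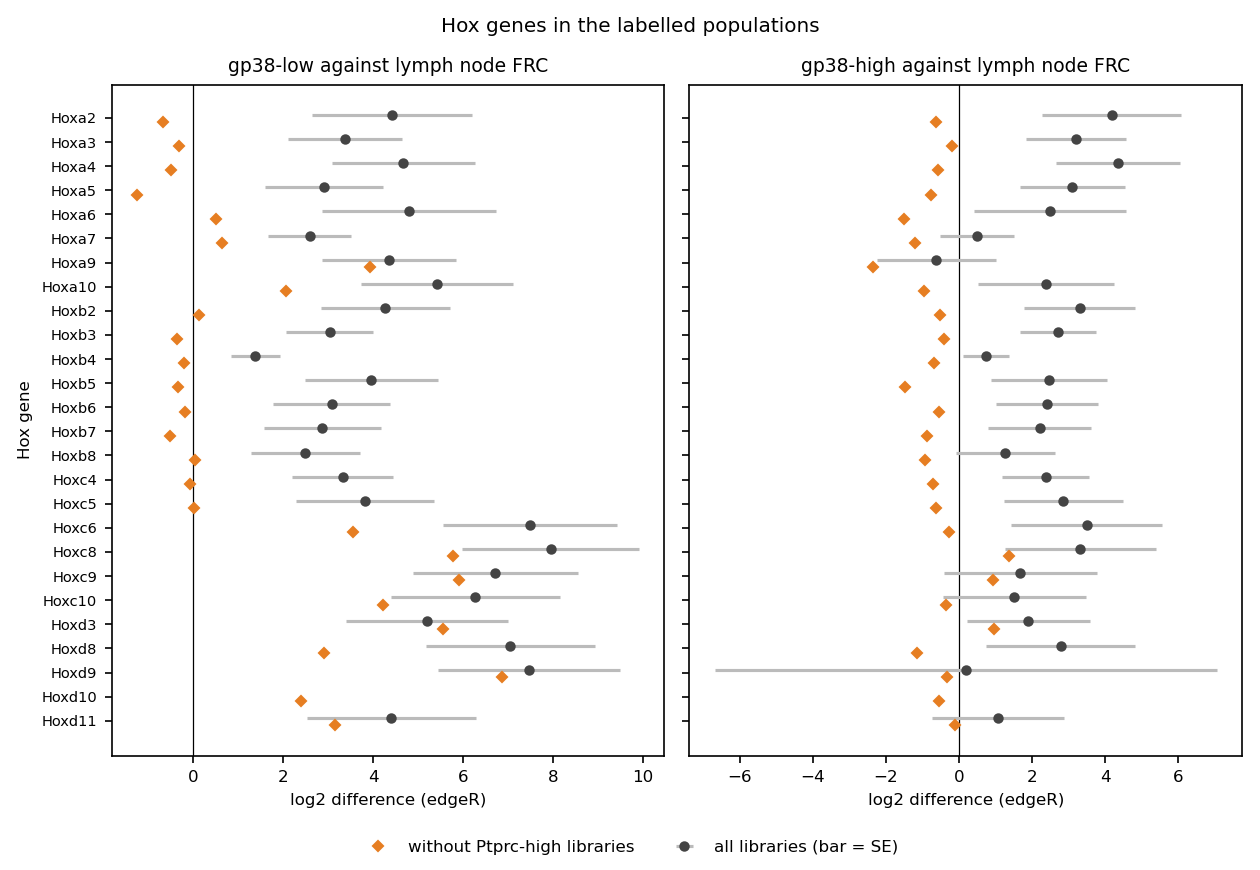
Log2 difference (edgeR) of the tested Hox genes (1 gene not shown) in gp38-low (left) and gp38-high (right) against lymph node FRC libraries, with all libraries (dark points, bars are SE) and without the Ptprc-high libraries (orange diamonds). With all libraries nearly every point lies above 0, with a median of 4.31 on the left and 2.39 on the right. Over all tested genes 56.1% and 53.8% were positive. Without the Ptprc-high libraries the medians are 0.12 and -0.62, and the FRC group is 1 Msln-high and 1 remaining library, both TG-.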

How the data were processed

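Total RNA of sorted cells was sequenced after ribosomal RNA removal, per the labels' protocols. Demultiplexing used bcl2fastq 2.17, trimming Trim Galore 0.4.3 and alignment to mm10 STAR 2.5.2a, by the names in the submitters' processing notes. No source used here names the annotation release. The authors deposited raw read counts per gene for each library, in STAR's layout. STAR counts uniquely mapped reads that fall on 1 gene. Its 4 lines for reads in no gene (of all reads, 19.4% to 67.7% unmapped, 4.98% to 7.28% multimapped, 6.37% to 26.8% outside genes or ambiguous) were left out. Column 4, the reverse strand, was used, since the forward strand held 6.67% to 15.3% of both. Of 54446 identifiers, 54409 matched GENCODE M21 (GRCm38). CPM is counts scaled to 1000000 reads in genes (8517844 to 25194443 per library). The non-coding RNA Gm26917 took 5.31% to 36.0% of them.

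Labelled groups were compared with edgeR 4.0.16 (R 4.3.3: TMM, filterByExpr, robust quasi-likelihood, Benjamini-Hochberg over all genes). The 8 CD45, 8 gp38-low and 7 FRC libraries had a fit of their own, gp38-high was fitted with all 12 islet gp38 libraries, and populations were compared over the 19 gp38 and FRC libraries. An SE is the size of the log2 difference over the root of F. Alternatives were DESeq2 1.42.0, limma-voom with quality weights (limma 3.58.1), other size factors, no filter, both strands, Gm26917 left out, other floors and thresholds, a replicate block and single libraries left out. The test was checked on simulated data in which the libraries of a group shared the same mean levels. That check does not cover the mix of classes within the labelled groups.

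Members, classes, lists and tests were chosen with earlier results of these data known. The rule for named genes took per cluster the 3 Hox genes present in most stromal libraries, those without overlap between stromal classes, the 2 with the smallest p per comparison and posterior genes of at least 1 CPM. From other lists it took up to 4 of the most abundant and up to 4 without overlap. Hoxb1, Hoxb9, Hoxb13, Hoxc11, Hoxc12, Hoxc13, Hoxd1, Hoxd4, Hoxd10, Hoxd12, Hoxd13, Hoxa11, Hoxa13, Hotair, Hottip and the Cdx genes were named beyond it. Values of 3 genes are not reported here.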

Additional observations from a re-analysis of the deposited data

Results flagged for a closer look

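Within groups of 4 to 10 libraries, 85 sets of Hox values were examined for a library far from the rest, and 6 had one. Chance gives about 1 in 20 such sets. Among the 4 TG+ CD45 libraries, replicate 3 had a posterior share of Hox reads of 21.4%, and the next highest had 1.74%. Among the 4 TG- gp38-low libraries, replicate 3 had a posterior share of 28.3%, and the next had 1.75%. Both are Ccl21a-high libraries in a group whose other members are not. Among the 4 TG- CD45 libraries, replicate 4 had 5 Hox genes at or above the floor and the next lowest had 27, and it is the 1 library labelled CD45 with Ptprc above 100 CPM. Within the 7 Ccl21a-high libraries, TG+ gp38-low replicate 1 had the fewest Hox genes at or above the floor, 25 against 27 in the next. In the same class Hoxa10 was at 8.83 CPM in TG- CD45 replicate 2, and the next highest library had 5.62 CPM. Within the 4 Msln-high libraries Hoxb6 was at 6.51 CPM in TG- gp38-high replicate 1, below 9.53 CPM in the next.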

How the results depend on the processing

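The 0 Hox genes called by edgeR in each of the 7 comparisons stayed at 0 with relative log expression size factors, no filter, both strands counted and Gm26917 left out. DESeq2 gave 21 in gp38-low against FRC and 1 in gp38-high against gp38-low, limma-voom gave 18 in CD45 and 22 in gp38-low against FRC, and both gave 0 in the other comparisons. Leaving out 1 library gave 0 to 18 in gp38-low against FRC: 18 without TG- gp38-low replicate 1, where 5403 of all 18414 genes were called, and 5 without TG- FRC replicate 1, where 1369 of 18281 were. It gave 0 elsewhere. With the replicate number as a block 0 were called in every comparison. Same-numbered TG- and TG+ libraries of a population did not all deviate together (correlations -0.141 to 0.633). Numbers were not compared across populations, and the classes are mixed within the labels. Whether a shared number means a shared animal, pool or batch therefore cannot be told from these values. The Hoxa5 difference in gp38-low TG+ against TG- was 0.28 with the block and -1.20 to 0.53 with 1 library left out, the positive value without TG- replicate 4. Without the Ptprc-high libraries Hoxb3 and Hoxa4 in gp38-high against FRC stood at -0.41 and -0.56, with 1 Msln-high and 1 remaining FRC library left, both TG-. In all these cases the cause was not tested.

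Median numbers of Hox genes present depend on the floor by construction. A floor of 10 counts gave 24, 17, 18.5 and 1, and a floor of 1 CPM gave 24, 16.5, 17 and 1, in the Ccl21a-high, Msln-high, remaining and Ptprc-high libraries. Thinning to the smallest library gave 26, 18.5 and 20.5 in the stromal classes. Raising each class threshold 2-fold put TG- FRC replicate 4 (169 CPM of Ptprc) among the remaining libraries. The counts of Hox genes lower in the Ccl21a-high than in the remaining, lower in the Msln-high than in the remaining, and lower in the Ptprc-high than in the stromal libraries were then 0, 0 and 0. With TMM scaling Msln-high against remaining gave 4 higher and 5 lower, and leaving out 1 library gave 2 to 5 lower, the 5 without TG- FRC replicate 2. TMM scaling also moved the log2 ratio of Hoxb4 between the Ccl21a-high and Msln-high libraries to 0.0030, and counting both strands moved that of Hoxb2 between the Ccl21a-high and remaining libraries to 0.26. The count of Hox genes higher in the Ccl21a-high libraries ranged from 11 to 14 against the remaining and from 8 to 11 against the Msln-high libraries over all alternatives.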
